A study of Caenorhabditis elegans with 4 samples.

Results

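The genes described here code for the enzymes that make and use S-adenosylmethionine (SAM), the methyl donor of the cell, in the nematode Caenorhabditis elegans. They were taken from the gene count tables by name: the SAM synthetase genes sams-1, sams-3, sams-4 and sams-5, the phosphoethanolamine methyltransferase genes pmt-1 and pmt-2, the adenosylhomocysteinase gene ahcy-1, the cystathionine lyase genes cth-1 and cth-2, and the cystathionine synthase gene cbs-1. All 10 were found among the 46881 genes of the tables, and all 10 passed the filter on low counts. Messenger RNA was read from wild-type Bristol N2 hermaphrodites fed for 1 day on lawns of Escherichia coli OP50, the usual laboratory food and the control, or of the Bacillus subtilis (natto) strain MI-OMU01. The worms were 3 days old when the feeding began, and about 200 worms were pooled per group. There were 2 libraries per diet, with 16962082 to 24381952 counted reads each. No label ties the libraries of a diet to separate cultures, so a p-value here speaks only of how far these libraries scatter, and that scatter may be technical. RNA came from whole worms, in which fewer cells of a type and less RNA per cell cannot be told apart.

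SAM synthetases join methionine and ATP into SAM. Methyltransferases pass its methyl group on and leave S-adenosylhomocysteine, which adenosylhomocysteinase splits into adenosine and homocysteine. Homocysteine is either methylated back to methionine, in a step that uses folate and vitamin B12, or enters transsulfuration, where cystathionine synthase and then cystathionine lyase turn it into cysteine. Nematodes also spend SAM on methylating phosphoethanolamine to phosphocholine, the head group of the membrane lipid phosphatidylcholine. In worms PMT-1 carries out the first methylation and PMT-2 the later ones. Worms short of SAM or phosphatidylcholine are known to switch on lipid synthesis through SBP-1, their form of the sterol-responsive factor SREBP.

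The comparison asked which of these genes responded to the MI-OMU01 diet. The enzymes of phosphocholine synthesis moved in opposite directions: pmt-1 rose and pmt-2 fell. The main SAM synthetase gene sams-1, ahcy-1 and cth-1 also fell, all by at least 2-fold, while sams-3 fell and cth-2 rose by small amounts. The genes sams-4, sams-5 and cbs-1 did not pass the test. In edgeR's quasi-likelihood test, with Benjamini-Hochberg adjustment over all 14967 genes tested and a threshold of 0.05, 2 of the 10 genes were higher on MI-OMU01 and 5 were lower. Among all genes tested, 14.6% were higher and 15.2% lower, 29.7% in all. Past the threshold with at least a 2-fold change were 5 of the 10 genes, against 12.8% of all genes tested. The genes with a mean of at least 100 counts per 1000000 reads (CPM), the range in which 6 of the 10 lie, were called more often, at 38.5%. In 7 of the 10 genes the libraries of the diets did not overlap, against 63.1% of all genes tested. The calls for sams-3 and cth-2 were near the threshold and did not hold under every setting, as given below.

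**Figure D1:**
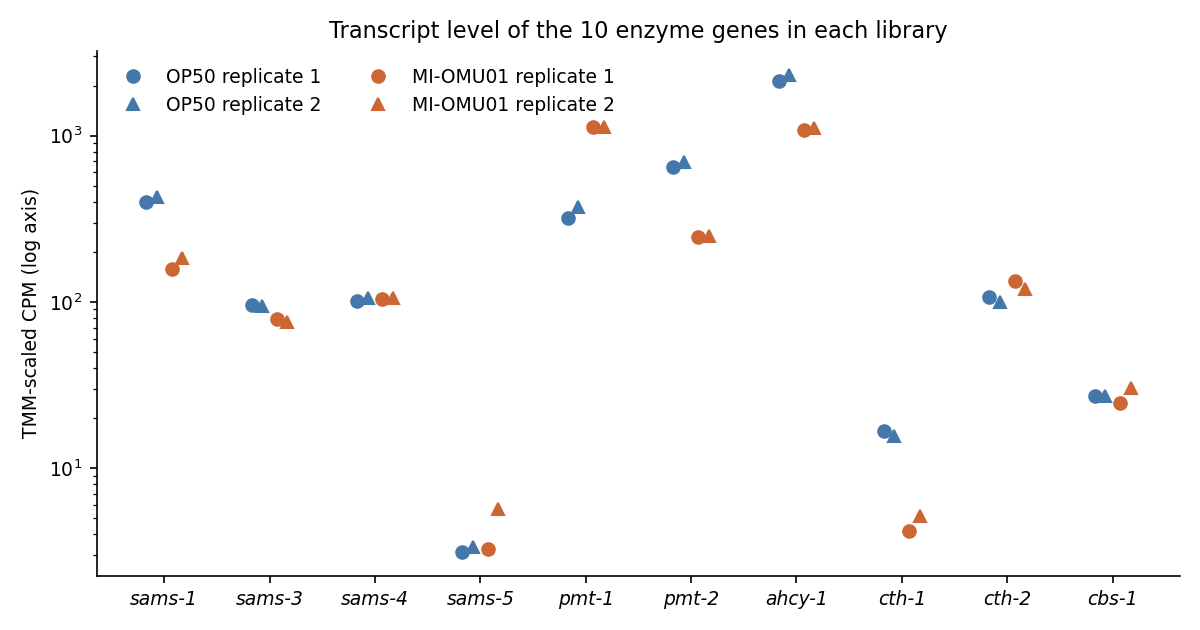
Level of each of the 10 enzyme genes in each library, in CPM scaled with TMM, on a log axis. Blue marks are OP50 libraries, orange marks MI-OMU01 libraries, circles replicate 1 and triangles replicate 2. The diets stand apart most widely for pmt-1, pmt-2, sams-1, ahcy-1 and cth-1, and the marks of sams-4, sams-5 and cbs-1 overlap.

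The gene pmt-1 (WBGene00022781, chromosome II, 5278137 to 5282525, minus strand, WBcel235) codes for the enzyme that starts phosphocholine synthesis. Its level was 319 and 371 CPM in the OP50 libraries, against 1129.6 and 1134 CPM in the MI-OMU01 libraries. Both MI-OMU01 libraries thus lay far above both OP50 libraries and close to each other. The mean level was 345 ± 36.8 CPM (SD, n = 2) on OP50 and 1132 ± 2.97 CPM on MI-OMU01. The log2 fold change was 1.71 (SE 0.11, 95% interval 1.48 to 1.95; edgeR adjusted p = 5.35e-10). Over 11 other settings tried it ran from 1.57 to 1.85.

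The gene pmt-2 (WBGene00018811, chromosome V, 4628580 to 4635263, plus strand) codes for the enzyme that completes the methylation. It stood at 644 and 695 CPM in the OP50 libraries, against at 245 and 248 CPM in the MI-OMU01 libraries. The order of the diets was thus the reverse of that for pmt-1, and the gap was again wide. The mean level was 669 ± 35.9 CPM on OP50 and 247 ± 1.97 CPM on MI-OMU01 (SD, n = 2). The log2 fold change was -1.44 (SE 0.11, 95% interval -1.66 to -1.22; edgeR adjusted p = 2.89e-09).

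Because the genes of the pair moved apart, the balance between their transcripts turned over. The number of pmt-1 reads per pmt-2 read was 0.495 (95% counting interval 0.479 to 0.512) and 0.534 (0.518 to 0.551) in the OP50 libraries. It was 4.60 (4.46 to 4.75) and 4.57 (4.45 to 4.70) in the MI-OMU01 libraries. These intervals cover counting error only and treat each read as independent, although the reads carry no molecular identifiers. A ratio within a library does not depend on how libraries are scaled, and it was 8.92-fold higher on MI-OMU01. An exact two-sided permutation test over the 4 libraries gave p = 0.333, the smallest it can give with 2 against 2. Counted per kilobase of gene length, pmt-1 held 28.05% and 29.6% of the pair's reads on OP50 and 78.4% and 78.2% on MI-OMU01. The summed level of the pair differed less than either gene, at 598 ± 41.2 CPM per kilobase on OP50 and 723 ± 2.74 on MI-OMU01 (SD, n = 2). This sum was 1.21-fold higher on MI-OMU01, and 1.33-fold when total counts set the library sizes.

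**Figure D2:**
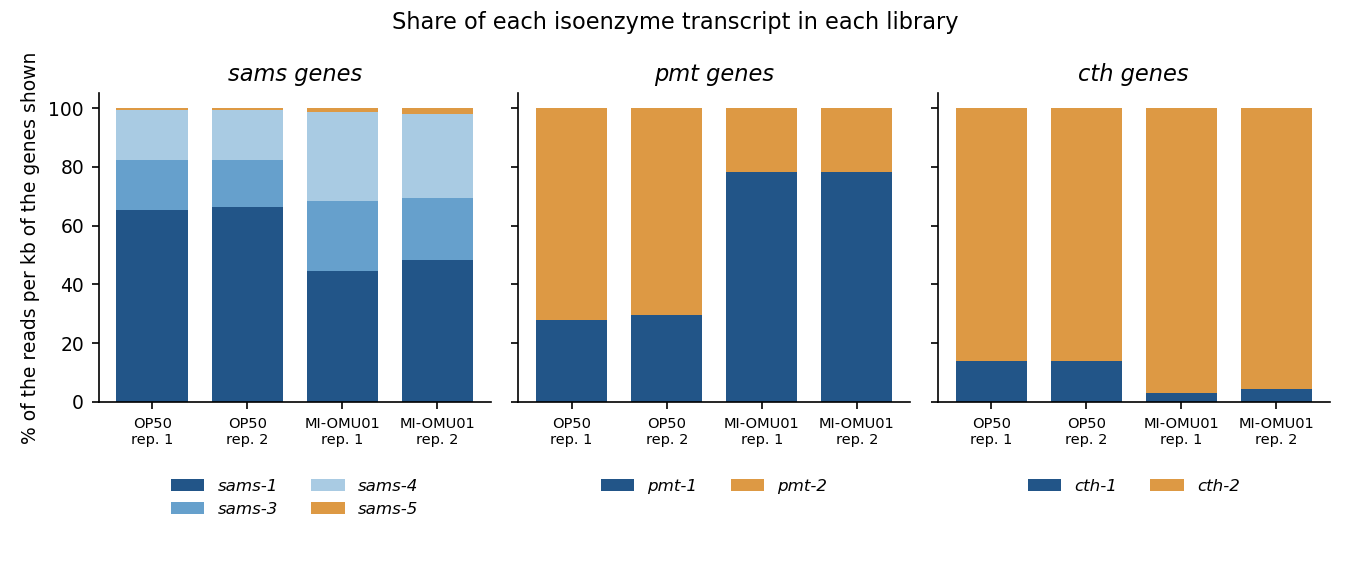
Share of each gene in the reads per kilobase of its family, in %, for the sams, pmt and cth genes, with 1 bar per library. On MI-OMU01 the share of pmt-1 is 78.4% and 78.2% against 28.05% and 29.6% on OP50, while the shares of sams-1 and cth-1 are smaller than on OP50.

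The SAM synthetase gene sams-1 (WBGene00008205, chromosome X, 11965962 to 11969784, plus strand) had the highest level per kilobase of the 4 sams genes on either diet. It stood at 396 and 426 CPM in the OP50 libraries, against at 158 and 183 CPM in the MI-OMU01 libraries. The diets did not overlap, and the gap between them was several times the gap between libraries of a diet. The mean level was 411 ± 21.0 CPM on OP50 and 171 ± 17.8 CPM on MI-OMU01 (SD, n = 2), 2.40-fold lower (log2 fold change -1.26, SE 0.11; edgeR adjusted p = 3.17e-08). Exons of sams-1 share 24 positions with ucr-2.1 on the same strand, which was counted as a gene of its own.

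The other SAM synthetase genes changed little or did not pass the test. Both sams-3 and sams-4 lie on chromosome IV, 2258 bases apart and on opposite strands (sams-4, WBGene00015540, 5843890 to 5846398, minus; sams-3, WBGene00015538, 5848657 to 5850845, plus). The level of sams-4 was 101 and 106 CPM in the OP50 libraries, against 105 and 106 CPM in the MI-OMU01 libraries, so that the diets overlapped (adjusted p = 0.885 with edgeR). The 95% interval of its log2 fold change, -0.19 to 0.24, leaves no room for a change as large as that of sams-1. The level of sams-3 was 95.9 and 94.7 CPM on OP50 and 78.8 and 75.3 CPM on MI-OMU01. Its fall was small, at a log2 fold change of -0.31 (SE 0.11; edgeR adjusted p = 0.0354). That call was lost in 4 of 10 other settings, with adjusted p-values of 0.243 with total counts as library sizes, 0.0561 with a filter at 5 CPM, 0.178 without MI-OMU01 replicate 1 and 0.327 without MI-OMU01 replicate 2. The sequences of sams-3 and sams-4 are known to be alike and how reads that fit both were treated is not given in the sources used here, so the split between them is uncertain. With their reads summed, the log2 fold change was -0.12 (edgeR adjusted p = 0.398). On the opposite strand, sams-4 shares 115 exon bases with C06E7.2 and sams-3 shares 20 with C06E7.4, and the strand setting of the counting is not given in the sources used here.

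The gene sams-5 (WBGene00006416, chromosome IV, 6277435 to 6279572, minus strand) had the lowest mean level of the 10 genes on each diet. On MI-OMU01 its mean was close to that of cth-1 (4.46 against 4.66 CPM). In MI-OMU01 replicate 2 sams-5 stood above cth-1 (5.66 against 5.15 CPM). It had 51 and 55 reads in the OP50 libraries, against 60 and 144 reads in the MI-OMU01 libraries. In CPM these were 3.13, 3.35, 3.25 and 5.66, so that 1 MI-OMU01 library stood above the other 3 libraries. Its log2 fold change of 0.48 (95% interval -0.11 to 1.07) did not pass the test (edgeR adjusted p = 0.225), and it was 0.00 without MI-OMU01 replicate 2 and 0.80 without MI-OMU01 replicate 1.

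Taking the SAM synthetase genes as a family, sams-1 held 65.3% (64.4% to 66.3%) and 66.5% (65.6% to 67.4%) of their reads per kilobase in the OP50 libraries. In the MI-OMU01 libraries it held 44.7% (43.5% to 45.9%) and 48.2% (47.2% to 49.3%). The share was smaller in both MI-OMU01 libraries, and the gap between the diets was wider than that between libraries of a diet. The MI-OMU01 libraries themselves differed by more than their counting intervals. The reads of sams-1 per read of the other 3 genes fell 2.23-fold, from 1.98 and 2.09 to 0.849 and 0.982 (exact two-sided permutation p = 0.333, the smallest possible). The family's summed level was 291 ± 11.3 CPM per kilobase on OP50 and 172 ± 8.67 on MI-OMU01 (SD, n = 2), 1.70-fold lower (1.55-fold when total counts set the library sizes).

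The gene ahcy-1 (WBGene00019322, on chromosome I, with 3 merged exons) codes for the enzyme that clears S-adenosylhomocysteine, which inhibits methyltransferases when it builds up. It was the most abundant of the 10 genes, with 20027 to 38240 reads per library. Its level was 2145 and 2329 CPM in the OP50 libraries, against 1086 and 1114 CPM in the MI-OMU01 libraries. Both OP50 libraries lay well above both MI-OMU01 libraries. The fall was 2.03-fold (log2 fold change -1.02, SE 0.11, 95% interval -1.25 to -0.80; edgeR adjusted p = 3.40e-07), and the log2 fold change was -0.89 when total counts set the library sizes. Per kilobase it ranked 86th of the 14967 tested genes on OP50 and 147th on MI-OMU01.

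Of the transsulfuration genes, cth-1 responded and cbs-1 did not pass the test. The gene cth-1 (WBGene00009048, chromosome V, 16100627 to 16102750, plus strand) had 272 and 257 reads in the OP50 libraries, against 77 and 131 reads in the MI-OMU01 libraries, or 16.7 and 15.7 against 4.17 and 5.15 CPM. The diets did not overlap. The log2 fold change was -1.78 (SE 0.19, 95% interval -2.18 to -1.38; edgeR adjusted p = 4.94e-07). In size it was close to the opposite change of pmt-1 (1.71), and their order in size turned with the setting. With total counts as library sizes it was -1.65 beside 1.85 for pmt-1. Its interval is wider than that of pmt-1 and overlaps those of pmt-2 and sams-1.

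The second cystathionine lyase gene, cth-2 (WBGene00022856, chromosome II, 7056173 to 7058014, minus strand), is more abundant. It stood at 107 and 99.6 CPM on OP50 and at 134 and 119.7 CPM on MI-OMU01. The diets did not overlap, but the gap was close to the spread within MI-OMU01. Its rise, at a log2 fold change of 0.29 (SE 0.11), passed narrowly (edgeR adjusted p = 0.0458). In 6 of the 11 other settings it did not pass, with adjusted p-values from 0.0568 to 0.462. Among these, the value was 0.462 when MI-OMU01 replicate 1 was left out, 0.124 without MI-OMU01 replicate 2 and 0.0980 without OP50 replicate 2. On the opposite strand cth-2 shares 13 exon bases with ZK1127.3.

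Within the pair, reads of cth-1 per read of cth-2 were 0.156 and 0.157 in the OP50 libraries, against 0.0313 and 0.0430 in the MI-OMU01 libraries, a 4.27-fold fall in the ratio (exact two-sided permutation p = 0.333, the smallest possible). Per kilobase cth-1 held 13.9% (12.4% to 15.5%) and 14.0% (12.4% to 15.6%) of the pair on OP50 and 3.13% (2.48% to 3.89%) and 4.25% (3.57% to 5.03%) on MI-OMU01. Since cth-2 made up most of the pair on both diets, the summed level was 86.1 ± 4.28 CPM per kilobase on OP50 and 94.3 ± 6.52 on MI-OMU01 (SD, n = 2). On the TMM scale the nearest libraries of the diets differed by less than the spread within a diet. With total counts as library sizes the summed level of the pair was 1.20-fold higher on MI-OMU01. It was then 85.7 and 78.7 CPM per kilobase on OP50 and 104 and 93.6 on MI-OMU01.

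The gene cbs-1 (WBGene00013866, chromosome X, 10054281 to 10057524, plus strand) codes for the enzyme that commits homocysteine to transsulfuration. Its level was 27.1 and 27.04 CPM in the OP50 libraries, against 24.6 and 30.2 CPM in the MI-OMU01 libraries. The OP50 libraries lay between the MI-OMU01 libraries. The log2 fold change was 0.02 (95% interval -0.28 to 0.32; edgeR adjusted p = 0.934), and the interval leaves out a 2-fold change in either direction.

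**Figure D3:**
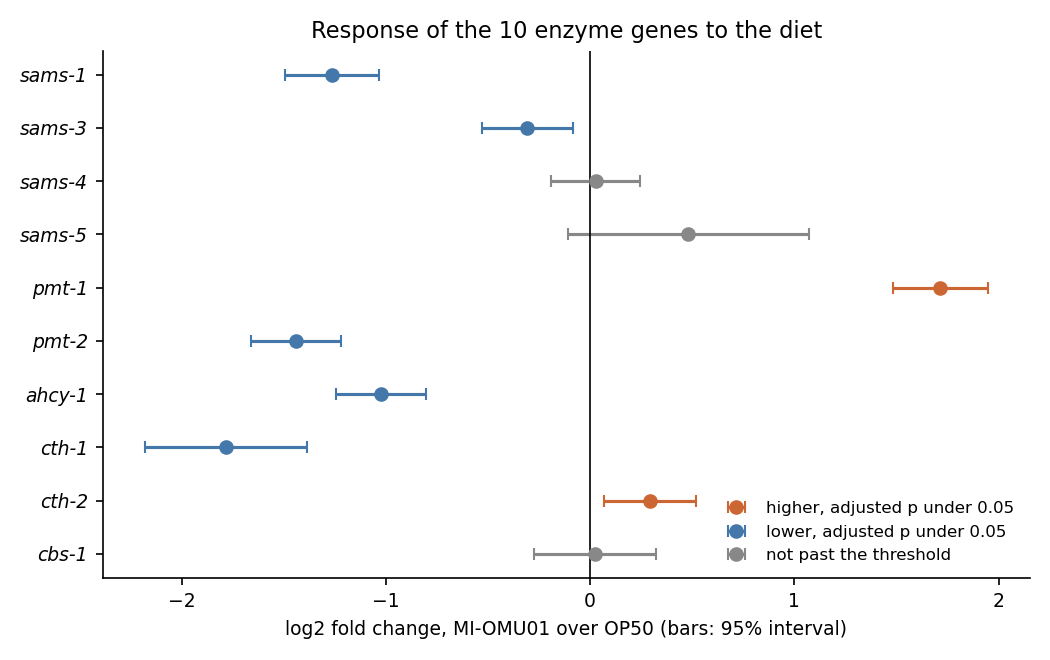
Log2 fold change of each gene in MI-OMU01-fed over OP50-fed worms, with its 95% interval from edgeR's quasi-likelihood test (2 libraries per diet). Orange points were higher and blue points lower past an adjusted p of 0.05, and grey points did not pass. The intervals of sams-1, pmt-2, ahcy-1 and cth-1 lie wholly below -0.80 and that of pmt-1 wholly above 1.48.

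Ordered by level per kilobase on OP50, ahcy-1 came first at 1372 ± 79.8 CPM per kilobase (SD, n = 2), then pmt-2 at 425 ± 22.8. Next came sams-1 at 192 ± 9.84 and pmt-1 at 172 ± 18.4, whose libraries overlapped. The genes cth-2 (74.1 ± 3.73), sams-4 (49.5 ± 1.83) and sams-3 (47.7 ± 0.441) followed, and the ranges of sams-3 and sams-4 differed by less than the spread of sams-4. Lowest were cth-1 (11.99 ± 0.543) and cbs-1 (11.8 ± 0.00453), which did not differ beyond their spread, and sams-5 (2.11 ± 0.102). On MI-OMU01 pmt-1 (566 ± 1.49) stood next to ahcy-1 (675 ± 12.4) at the top, and pmt-2 (156.8 ± 1.25) came after them. The lyase gene cth-2 (90.9 ± 7.03) and sams-1 (79.9 ± 8.31) followed close together, then sams-4 (50.4 ± 0.484), sams-3 (38.5 ± 1.23) and cbs-1 (11.99 ± 1.75), and cth-1 (3.45 ± 0.510) stood beside sams-5 (2.90 ± 1.11) at the bottom. In rank among all tested genes pmt-1 went from 585th to 176th and sams-1 from 524th to 1295th.

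Genes listed around the methionine and folate cycles were lower or did not pass the test. The 18 listed genes cover homocysteine remethylation, folate use and cobalamin handling, and also include nhr-10, nhr-114 and mett-10. Of the 18, 10 fell and none rose, beside 15.2% lower and 14.6% higher among all genes tested. Their median log2 fold change was -0.60, beside 0.03 over all genes tested. In edgeR 0 of the 18 were higher at an unadjusted p under 0.05, and DESeq2 called 0 higher, while 1 was higher with total counts as library sizes, with the replicate number as a block or without OP50 replicate 1. The methionine synthase gene metr-1, which returns homocysteine to methionine, went from 653 ± 1.26 to 251 ± 14.8 CPM (SD, n = 2; log2 fold change -1.38, SE 0.11). Its reductase gene mtrr-1 fell 1.69-fold and the methylenetetrahydrofolate reductase gene mthf-1, which supplies the methyl group, fell 1.77-fold. The folate carrier-like gene folt-2 fell most, from 86.6 ± 0.0703 to 10.5 ± 1.26 CPM (log2 fold change -3.03, SE 0.13; edgeR adjusted p = 2.29e-12). The transporter gene pmp-5 had a log2 fold change of -2.42. The other genes that fell were mel-32, dao-3, atic-1, mmaa-1 and nhr-114. The gene mett-10, whose product methylates sams transcripts and so limits their splicing in worms, did not pass the test (log2 fold change -0.12, 95% interval -0.44 to 0.20; edgeR adjusted p = 0.612).

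The remaining genes of phosphatidylcholine and phosphatidylethanolamine synthesis were split. Of 18 tested, 3 rose and 5 fell, beside 14.6% and 15.2% of all genes tested, and the median log2 fold change was -0.07. With total counts as library sizes 4 rose and 1 fell, and the median was 0.06. The phosphatidylserine decarboxylase gene psd-1, which makes phosphatidylethanolamine, went from 38.7 ± 1.45 to 70.4 ± 5.93 CPM (SD, n = 2; 1.82-fold, edgeR adjusted p = 1.28e-05). The gene pcyt-2.1, which activates phosphoethanolamine for lipid synthesis, rose 1.47-fold and the lipin gene lpin-1, whose product makes diacylglycerol, 1.45-fold. These rises passed in all 11 other settings. The gene that passed besides them with total counts was ckb-2 (log2 fold change 0.35, edgeR adjusted p = 0.0696), which also passed with the replicate number as a block and with a filter at 5 CPM. The gene pcyt-2.2, a close relative of pcyt-2.1, had a log2 fold change of 0.19 (edgeR adjusted p = 0.544). The gene pcyt-1, whose product activates phosphocholine after the PMT-2 step, was 1.33-fold lower (edgeR adjusted p = 0.0128). The choline and ethanolamine kinase genes cka-2 and ckc-1 were 1.52-fold and 1.40-fold lower, and ckb-3 and pssy-1 fell as well. Without MI-OMU01 replicate 1 none of the 5 falls in this list passed, and without MI-OMU01 replicate 2, 1 did. Without OP50 replicate 2, 2 passed.

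Genes of cysteine and sulfide metabolism had 2 higher and 5 lower of 15 tested, beside 14.6% and 15.2% of all genes tested. Their median log2 fold change was -0.28. The sulfide quinone oxidoreductase gene sqrd-1, which starts sulfide breakdown, rose from 11.8 ± 1.23 to 20.0 ± 1.102 CPM (SD, n = 2; 1.69-fold, edgeR adjusted p = 0.00115). The other higher gene, mpst-2, had 2 reads in the OP50 libraries together. The mercaptopyruvate sulfurtransferase genes mpst-1 and mpst-7 fell 1.54-fold and 1.81-fold, and the cysteine synthase-like gene cysl-1, which takes part in the response to sulfide, fell 1.49-fold. The other falls were those of suox-1 and gss-1. Without MI-OMU01 replicate 2, 1 gene of this list was lower, and 3 were without MI-OMU01 replicate 1. The second cystathionine synthase gene, cbs-2, was barely detected at 0.733 ± 0.00380 and 0.861 ± 0.162 CPM (edgeR adjusted p = 0.784). The cysteine synthase-like gene cysl-2 had a log2 fold change of -0.28 (edgeR adjusted p = 0.101, 0.0233 with the replicate number as a block and 0.0337 without OP50 replicate 1).

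Among 24 methyltransferase genes that consume SAM, 2 were higher and 4 lower, beside 14.6% and 15.2% of all genes tested. The median log2 fold change was -0.02 (0.11 with total counts as library sizes, where 3 were higher and 3 lower). The histone and arginine methyltransferases of the list, from set-1 to prmt-5, did not pass the test, with log2 fold changes from -0.16 to 0.15. With total counts as library sizes, met-1 among them passed (log2 fold change 0.29, edgeR adjusted p = 0.0414). Of the catechol methyltransferase-like genes, comt-2 was higher and comt-1 lower, both at few reads. The gene comt-2 had 8 and 5 reads in the OP50 libraries, against 44 and 56 in the MI-OMU01 libraries. For comt-1 these were 52 and 58 against 26 and 28 reads. The genes comt-3 (log2 fold change -0.07), comt-4 (0.51) and comt-5 (-1.06) did not pass, with edgeR adjusted p-values of 0.872, 0.509 and 0.0636. The last passed with the replicate number as a block (0.0468). The amine methyltransferase gene anmt-2 fell from 18.8 ± 4.05 to 7.59 ± 0.0697 CPM (SD, n = 2; log2 fold change -1.31, edgeR adjusted p = 1.45e-05) and anmt-1 fell 1.81-fold, while anmt-3 rose 1.33-fold. The ubiquinone synthesis gene coq-5 fell 1.42-fold, and coq-3 of the same pathway had a log2 fold change of -0.07 (edgeR adjusted p = 0.789). Leaving out MI-OMU01 replicate 1 brought the adjusted p of anmt-3 to 0.146 and left 1 gene higher and 2 lower. Leaving out OP50 replicate 2 brought that of anmt-1 to 0.0837, and leaving out MI-OMU01 replicate 2 that of coq-5 to 0.0737.

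Polyamine synthesis also draws on SAM. The SAM decarboxylase gene smd-1 went from 120.5 ± 4.001 to 55.8 ± 4.62 CPM (SD, n = 2; 2.16-fold lower, edgeR adjusted p = 2.15e-07). The spermidine synthase gene spds-1 fell 2.09-fold (edgeR adjusted p = 4.90e-05). The ornithine decarboxylase gene odc-1 and the arginase gene argn-1, which supply putrescine and its precursor, were 1.31-fold and 1.27-fold higher, and the polyamine transporter gene catp-5 was 1.38-fold lower. In all, 2 of 7 genes were higher and 3 lower, beside 14.6% and 15.2% of all genes tested. The median log2 fold change was -0.10 (0.03 with total counts as library sizes). The calls of odc-1, argn-1 and catp-5 were lost in 4, 3 and 6 of the 11 other settings, so that 1 gene was higher without each of the 4 libraries in turn, none was in DESeq2 (adjusted p = 0.141 for odc-1 and 0.110 for argn-1), and 2 were lower when OP50 replicate 2, MI-OMU01 replicate 1 or MI-OMU01 replicate 2 was left out.

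Of 16 lipid synthesis genes linked to SBP-1, 10 rose and 5 fell, beside 14.6% and 15.2% of all genes tested. In DESeq2 9 rose and 5 fell. The median log2 fold change of the list was 0.47. The transcript of sbp-1 itself rose 1.32-fold (edgeR adjusted p = 0.0156). This call was lost without OP50 replicate 1 (0.0573), without MI-OMU01 replicate 2 (0.297) and in DESeq2 (0.0542). The fatty acid desaturase genes fat-2 to fat-7, which introduce double bonds, all rose. The largest rise was that of fat-3, from 113 ± 10.9 to 351 ± 15.9 CPM (SD, n = 2; log2 fold change 1.64, SE 0.11). Both fat-5 and fat-7 rose 2.11-fold, although leaving out MI-OMU01 replicate 1 brought the adjusted p of fat-7 to 0.0633. The acyl-CoA synthetase gene acs-1 fell from 123 ± 3.36 to 40.9 ± 0.355 CPM, the diacylglycerol acyltransferase gene dgat-2 fell 1.93-fold and the elongase gene elo-5 1.70-fold. The abundant gene fasn-1 fell too, from 418 ± 27.6 to 289 ± 17.6 CPM (log2 fold change -0.53, edgeR adjusted p = 0.000661). The remaining fall was that of elo-6 (log2 fold change -0.51, edgeR adjusted p = 0.00113). Among the rises, the log2 fold change of mdt-15 was 0.39, and 0.23 without OP50 replicate 1. The gene lpin-1 is also in the phosphatidylcholine list.

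**Figure D4:**
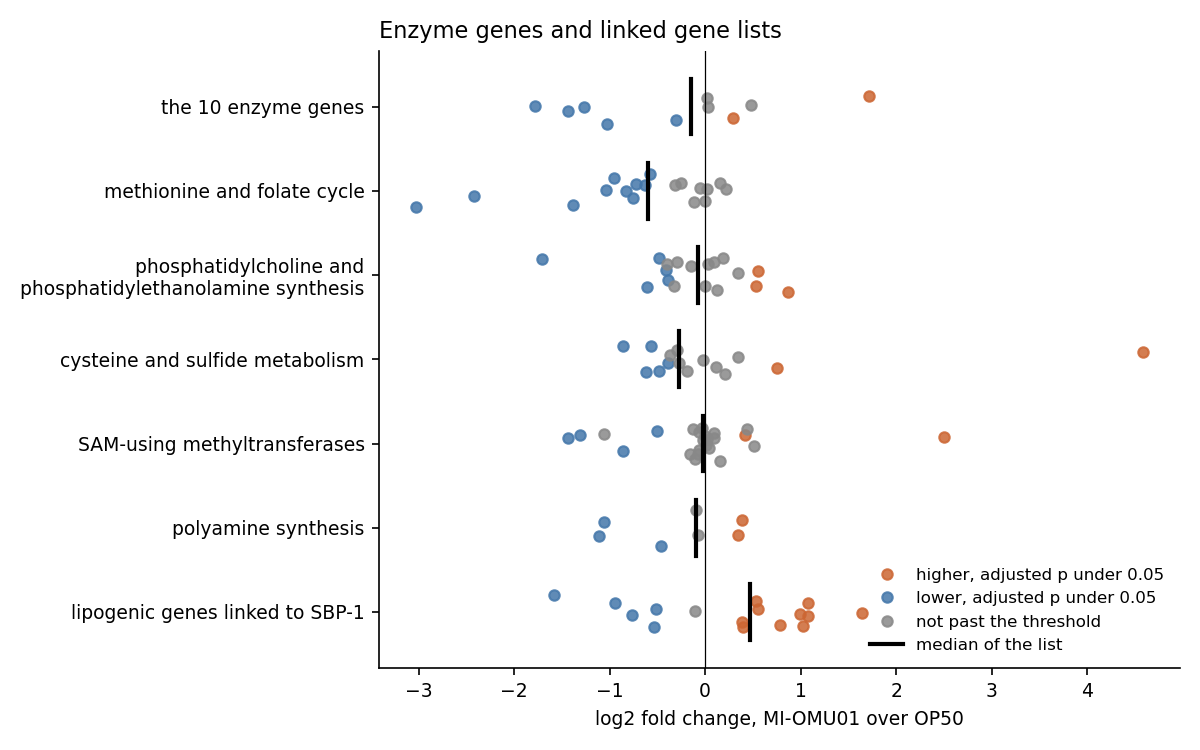
Log2 fold change in MI-OMU01-fed over OP50-fed worms for the 10 enzyme genes and for each linked gene list, with 1 point per gene tested and a bar at the median of each list. Colours mark genes higher (orange) or lower (blue) past an adjusted p of 0.05 in edgeR. The methionine and folate genes lie mostly to the left of 0, from -3.03 to 0.22, with a median of -0.60. The lipid synthesis genes lie on both sides of 0, from -1.59 to 1.64, with a median of 0.47. The point at 4.59 is mpst-2, whose fitted value rests on 2 reads in the OP50 libraries.

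Markers of some tissues moved with the diet as well. The counts of calls below stand beside 14.6% higher and 15.2% lower among all genes tested. Of 9 intestine markers tested, 4 were higher and 2 lower, and their summed level was 5038 and 5529 CPM in the OP50 libraries, against 9865 and 10276 CPM in the MI-OMU01 libraries. The protease gene asp-1 weighed most in that sum: without it the sums were 1821 and 1908 CPM on OP50 and 1546 and 1723 CPM on MI-OMU01. That lower sum does not describe each remaining marker. The abundant act-5 fell from 858 and 919 CPM on OP50 to 541 and 608 CPM on MI-OMU01, and spl-1 was lower too. The genes ges-1, elt-7 and vha-6 were higher, and elt-2, ifb-2 and pgp-1 did not pass the test. The sums of the hypodermis, muscle, neuron, sperm and embryo markers kept the order of the diets given here when the most abundant marker of each list was left out. Of 9 hypodermis markers 6 were lower, with sums of 1823 and 2057 CPM against 513 and 425 CPM, and of 8 muscle markers 6 were lower, with sums of 9181 and 10579.7 against 6731 and 7954 CPM. Of 12 germline and oocyte markers 1 was lower, with sums of 2321 to 2964 CPM on OP50 and 2466 to 2714 CPM on MI-OMU01. Of 8 neuron markers 2 were higher (908 and 1104 against 1311 and 1434 CPM), of 9 sperm markers 2 were higher (14.4 and 12.6 against 16.3 and 18.2 CPM), and of 8 embryo markers 3 were lower (152 and 155 against 134 and 138 CPM). No marker of these lists was at 0 in all libraries. The part of such shifts in the values of the enzyme genes was not tested.

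**Figure D5:**
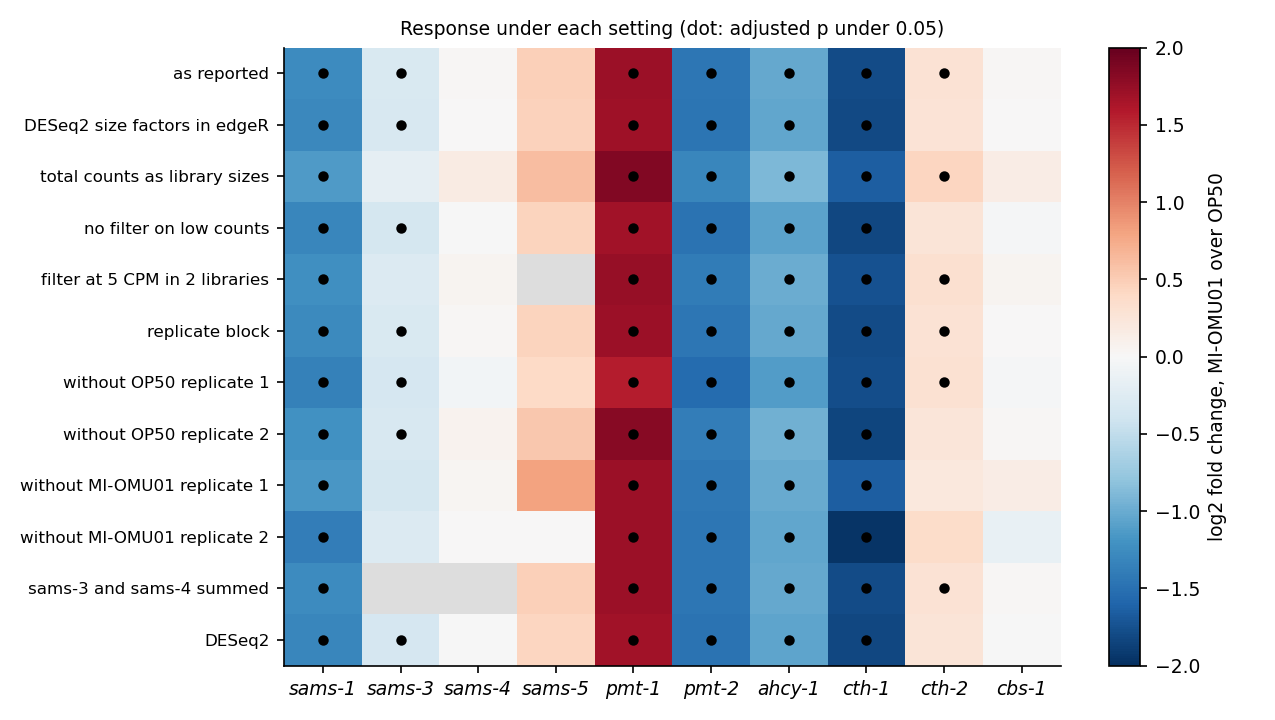
Log2 fold change of each enzyme gene (colour) as reported and under each of the other settings (lines), with a dot where the adjusted p was under 0.05 and grey where the gene was not tested under that name. The genes sams-1, pmt-1, pmt-2, ahcy-1 and cth-1 have a dot on every line, cth-2 on 6 of 12 and sams-3 on 7 of 11.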

How the data were processed

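The 4 deposited tables hold raw read counts per gene, not normalized by the authors, and a gene length in bases. The builds ce11 and WBcel235 are named per the submitters' processing notes, along with featureCounts 1.6.4, STAR 2.7.2b, cutadapt 2.7, Trimmomatic 0.39 and Trim Galore 0.6.5. Not given in the sources used here are settings, annotation release and strand mode. Coordinates are the outer exon bounds in the tables.

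Groups came from sample titles. Low genes were removed by filterByExpr (minimum count 10 and minimum total 15), TMM set the scale of the libraries (factors 0.948 to 1.05) and genes were tested with edgeR 4.0.16 in R 4.3.3 (robust quasi-likelihood, group as the only term, tested on simulated data). SE is the log2 fold change over the square root of F. Levels between genes were compared as TMM-scaled CPM per kilobase. Within a diet the libraries differed by more than sampling noise (chi-square per gene 8.44 and 7.44).

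The 10 genes and all lists were chosen with earlier results of these data known, so lists carry counts and medians and no test. Of the listed names sqrd-2 and opt-2 had no match. Named from each list were up to 3 risen and 3 fallen genes of at least 5 CPM on average, and metr-1, mtrr-1, mthf-1, pmp-5, pcyt-1, cbs-2, cysl-2, sbp-1 and mett-10. The other genes named (such as mpst-2, fat-2, fat-4 and fat-6) were chosen after their values were seen. Alternatives were DESeq2 1.42.0, its size factors or total counts in edgeR, other filters, the replicate number as a block, each library left out, and the sum of sams-3 and sams-4. Sequences were not used here.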

Additional observations from a re-analysis of the deposited data

How the results depend on the processing

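The calls of sams-1, pmt-1, pmt-2, ahcy-1 and cth-1 held in all 11 alternatives. The higher genes numbered 1 in place of 2, with pmt-1 left, under DESeq2 size factors, in DESeq2 and with no filter on low counts, and 1 to 2 with a library left out (1 without OP50 replicate 2, MI-OMU01 replicate 1 or MI-OMU01 replicate 2). The lower genes numbered 4 or 5 throughout. Over all genes 4449 passed, and 2935 to 4571 with a library left out, the fewest without MI-OMU01 replicate 2. With 1 library left in a diet, that library was assumed to vary like the other pair. With the replicate number as a block (replicate block) 5807 genes passed, and the member counts were again 2 higher and 5 lower. The differences between replicates 1 and 2 correlated across 10052 genes at 0.33 between the diets, but with 2 pairs and no label of a shared batch the libraries share only a number. When total counts set the library sizes, the median log2 fold change over all genes was 0.16 in place of 0.03, with 3206 genes higher and 1706 lower in place of 2178 and 2271. The sign of the median of the phosphatidylcholine, methyltransferase and polyamine lists turned with it. Of the 10 genes sams-5 had the lowest mean level on each diet and the widest interval. Its MI-OMU01 libraries also stood farthest apart in ratio. The part of depth in the width of the interval was not tested. The cause of these changes was not tested.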
